A study of Mus musculus with 12 samples.

Results

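The 10 genes described here encode receptors that detect foreign or misplaced nucleic acids and microbial products, together with the adaptors that pass their signal on: *Ddx58*, *Ifih1*, *Dhx58*, *Mavs*, *Cgas*, *Tmem173*, *Zbp1*, *Tlr2*, *Tlr3*, and *Tlr4*. They were taken by name from the 55536 genes of a raw read count table, in which *Cgas* is the current symbol of *Mb21d1*, and all 10 were among the 14499 genes that passed the filter on low counts. RNA-seq was performed on C2C12GFP cells, a mouse myoblast line that expresses green fluorescent protein and fuses into myotubes in low-serum medium. The cells were differentiated on uncoated plates (control), on Collagen I, on fibronectin, or on Geltrex™, a basement membrane extract with reduced growth factors that consists mainly of laminin, Collagen IV, and entactin. Each of the 4 groups had 3 samples of this 1 line, and the day of RNA collection was not given in the sources used here. The paper speaks of triplicate samples for RNA, and neither it nor the labels say that the 3 samples came from separate cultures. The p-values therefore set group differences against the spread between these samples, which may be technical.

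RIG-I (*Ddx58*) and MDA5 (*Ifih1*) are cytosolic helicases that bind viral-type RNA and activate the mitochondrial adaptor MAVS, while LGP2 (*Dhx58*) binds RNA but lacks the signaling domain of its relatives. cGAS (*Cgas*) makes a cyclic dinucleotide when it meets DNA in the cytosol, STING (*Tmem173*) is the receptor of that messenger, and ZBP1 binds Z-form nucleic acids and can start necroptosis. Toll-like receptors sit in membranes, where TLR2 binds bacterial lipoproteins, TLR3 binds RNA duplexes in endosomes, and TLR4 binds lipopolysaccharide. Genes of several of these receptors are themselves induced by interferon, and muscle cells are known to express some of them.

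The promoters below are shown as examples to be read beside the values. They are *Ddx58* and *Ifih1*, RNA sensors that rose on Geltrex™ and whose windows match one motif, and *Tlr2*, which also rose there and matches another. The last is *Cgas*, whose mean was highest on fibronectin and which was also called higher on Geltrex™. The printed windows were picked by value and match, so they show no link between a motif and a change. Each runs from 250 bases before to 50 bases from the annotated start of transcription, in the RefSeq annotation of GRCm38.p6, and 6 of the 10 genes had an entry. No entry was found for *Dhx58*, *Zbp1*, *Tlr4*, and *Tmem173* under the names searched. Capitals mark a match to the interferon-stimulated response element core, searched on both strands as GAAA, any 2 bases, and GAAA, in *Ddx58* (chr4:40239776-40240075, minus strand) and *Ifih1* (chr2:62646206-62646505, minus strand). In *Tlr2* (chr3:83841559-83841858, minus strand) they mark the NF-kB site. The *Cgas* window (chr9:78443188-78443487, minus strand) held none of the motifs searched.

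Ddx58: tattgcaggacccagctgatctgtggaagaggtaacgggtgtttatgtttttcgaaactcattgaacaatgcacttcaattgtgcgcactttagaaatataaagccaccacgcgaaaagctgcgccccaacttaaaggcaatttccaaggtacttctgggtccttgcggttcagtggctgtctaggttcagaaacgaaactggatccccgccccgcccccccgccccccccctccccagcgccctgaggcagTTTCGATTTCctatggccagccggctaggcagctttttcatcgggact
Ifih1: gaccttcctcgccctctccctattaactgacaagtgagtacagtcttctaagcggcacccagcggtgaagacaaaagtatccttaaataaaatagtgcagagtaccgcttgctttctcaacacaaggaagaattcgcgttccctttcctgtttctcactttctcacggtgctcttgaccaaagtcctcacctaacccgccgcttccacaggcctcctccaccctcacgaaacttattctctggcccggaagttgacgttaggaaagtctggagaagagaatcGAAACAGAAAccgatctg
Tlr2: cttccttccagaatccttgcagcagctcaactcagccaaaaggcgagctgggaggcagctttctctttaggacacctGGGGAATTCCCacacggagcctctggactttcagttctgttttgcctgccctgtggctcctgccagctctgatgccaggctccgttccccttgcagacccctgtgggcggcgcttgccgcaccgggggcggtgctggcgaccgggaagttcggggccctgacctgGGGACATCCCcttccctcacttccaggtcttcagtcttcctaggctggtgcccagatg
Cgas: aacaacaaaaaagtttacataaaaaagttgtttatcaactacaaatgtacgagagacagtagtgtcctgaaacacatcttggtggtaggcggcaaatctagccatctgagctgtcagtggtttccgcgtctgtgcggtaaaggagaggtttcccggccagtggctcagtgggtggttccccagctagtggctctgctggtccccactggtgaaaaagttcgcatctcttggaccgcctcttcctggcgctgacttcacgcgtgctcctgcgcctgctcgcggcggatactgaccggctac

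The response element core lay at bases 253 to 262 of the *Ddx58* window, on the opposite strand, and at bases 283 to 292 of the *Ifih1* window, so both matches followed the start of transcription. It was present in 3.44% of all 32851 promoter windows of the same length. The NF-kB site was matched in 8.46% of the windows. *Tlr2* had 2 stretches with it, bases 78 to 88, where 2 matches overlap, and bases 243 to 252, and *Tlr3* had 1 at bases 40 to 49. The *Tlr3* window is not printed and held no response element core, though *Tlr3* rose on Geltrex™. The gamma-activated site TTCNNNGAA, found in 8.3% of windows, was in none of the 6 windows, and the *Mavs* window held none of the 3 motifs. These are matches of letters, and binding was not measured.

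Total counts per sample lay between 22520404 and 27351766. Levels are given as CPM, counts per 1000000 counts of a library whose size was scaled by the trimmed mean of M values (TMM). The Geltrex™ samples were closer to one another than those of other groups, with a chi-square per degree of freedom of 2.18 to 4.56 between pairs against 7.77 to 65.7 elsewhere. They still differed by more than sampling noise and were counted as 3 samples, and Collagen I replicate 3 stood farthest from its group. The 8 myotube markers, such as *Myog*, summed to 6667–7567 CPM in the control, 7250–7432 on Collagen I, 2166–2548 on fibronectin, and 3020–3287 on Geltrex™. All 8 were lower on both of the latter coatings than in the control. Of 6 markers of cycling or undifferentiated myoblasts, 4 were higher on both, the cell cycle genes *Mki67*, *Top2a*, *Ccnb1*, and *Cdk1*. Over all genes, 14.7% were called lower on fibronectin and 16.6% on Geltrex™, and 17.1% and 16.4% higher. The sum of all 6 rose from 178–216 CPM in the control to 505–652 on fibronectin and 524–581 on Geltrex™. *Myf5* and *Pax7* were not called on either coating. Log2 fold changes were 0.08 and -0.05 for *Myf5* and -0.19 and -1.35 for *Pax7*, fibronectin first. *Pax7* had few counts, 42 in the control and 15 on Geltrex™. How far the shift in marker sums bears on the results that follow was not tested. In bulk RNA, fewer cells of a type and less RNA per cell cannot be told apart. The 10 macrophage and leukocyte markers summed to 0.844–2.19 CPM over the 12 samples, *Adgre1* and *Tyrobp* had 0 counts, and *Ptprc* had 1 count in all. *Cd68*, the only 1 of the 10 tested, had 77 to 98 counts a group and was not called in any comparison. *Lyz2* had 20 counts on fibronectin and on Geltrex™, 8 in the control, and 3 on Collagen I. The 5 endothelial markers summed to 0.769–3.49 CPM, with *Tie1* at 0 counts. *Tek*, the only 1 of the 5 tested, had 171 counts in the control, 105 on Collagen I, 208 on fibronectin, and 66 on Geltrex™. It was called lower on Geltrex™ than in the control, at a log2 fold change of -1.24.

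The sensor genes spanned a wide range of levels when counts were expressed per length. In the control, *Tlr4* was highest at 26.0 ± 3.76 CPM per kb of exon (SD, n = 3), followed by *Mavs* at 7.10 ± 0.49. *Tmem173* (3.26 ± 0.37), *Ddx58* (2.73 ± 0.24), and *Tlr2* (2.58 ± 0.29) lay close together, their ranges of mean ± SD overlapping from one to the next. *Tlr3* (0.858 ± 0.105), *Cgas* (0.575 ± 0.174), and *Ifih1* (0.428 ± 0.117) were below 1 CPM per kb, and *Zbp1* (0.170 ± 0.049) and *Dhx58* (0.104 ± 0.073) were the lowest. Within this order the SD ranges of *Cgas* and *Ifih1* overlapped, as did those of *Zbp1* and *Dhx58*. On Geltrex™ *Ddx58* reached 7.24 ± 1.20 CPM per kb, level with *Mavs* at 7.51 ± 0.27, and *Ifih1* reached 2.91 ± 0.25, above *Tlr3* at 1.94 ± 0.29. *Tlr4* stayed the highest of the 10 in each group.

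**Figure D1:**
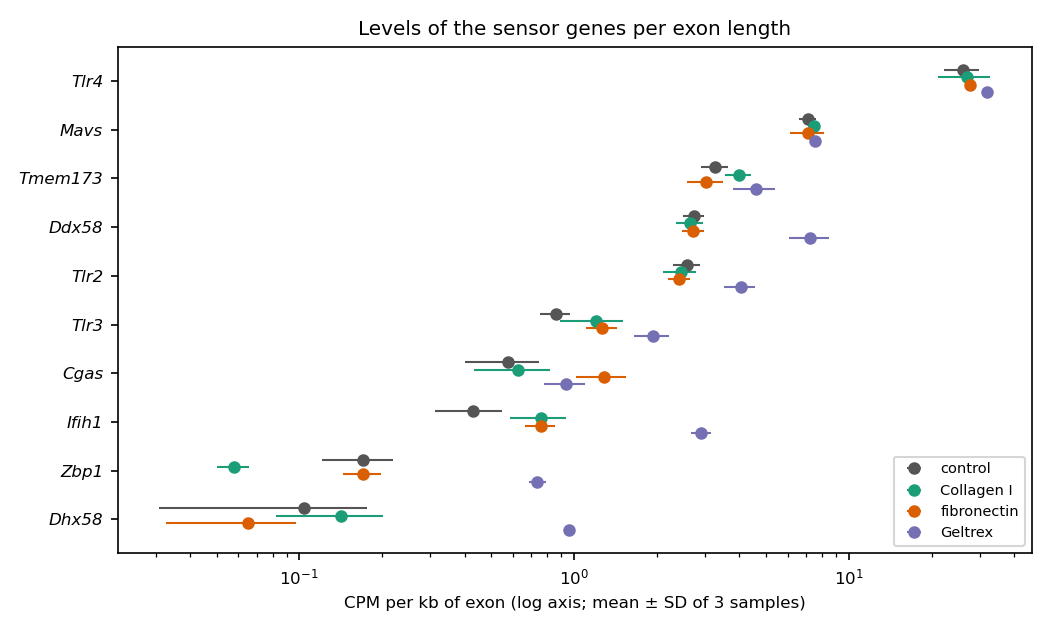
Mean CPM per kb of exon (log axis) of the 10 sensor genes in the 4 groups, with bars for the SD of 3 samples. *Tlr4* lies highest in every group, and the Geltrex™ points of *Ddx58*, *Ifih1*, *Zbp1*, and *Dhx58* lie to the right of the other 3 groups.

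On Geltrex™, 8 of the 10 sensor genes rose relative to the control at an adjusted p of at most 0.05, and none fell. Among all genes tested, 33% were called in this comparison and 16.4% were called higher. Because the 10 genes were chosen with earlier results of these data known, their count is a description and no independent support. The largest changes were in *Dhx58* (9.02-fold), *Ifih1* (6.79-fold), *Zbp1* (4.33-fold), *Ddx58* (2.65-fold), and *Tlr3* (2.25-fold), which were the 5 called with a fold of at least 2, a call made higher for 4.15% of all genes. *Tlr2*, *Cgas*, and *Tmem173* rose by less, and *Tlr4* and *Mavs* were not called. The median log2 fold change of the 10 genes was 0.93, against -0.012 over all genes tested. *Dhx58* had few counts outside Geltrex™, and without it 7 of 9 genes rose and the median was 0.69. In 9 of the 10 genes every Geltrex™ sample lay above every control sample, a pattern found in 25.3% of all genes.

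On fibronectin, *Cgas* (2.22-fold), *Ifih1* (1.77-fold), and *Tlr3* (1.47-fold) rose relative to the same control samples, the other 7 were not called, and only *Cgas* reached a fold of 2. Over all genes 31.9% were called (17.1% higher and 14.7% lower), and 2.42% were higher with a fold of at least 2, so a count of 3 in 10 is near the background. The median log2 fold change of the 10 genes was 0.0083, against -0.016 over all genes. On Collagen I, edgeR's quasi-likelihood test called 0 of the 10 genes, beside 1.12% of all genes called. At an unadjusted p under 0.05, where 14.8% of all genes lay, there were 3, *Ifih1*, *Zbp1*, and *Tlr3*. DESeq2 called 1, *Ifih1*, beside 485 of the 14499 genes tested. Their median on Collagen I was 0.09 on the log2 scale, against -0.0031 over all genes.

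**Figure D2:**
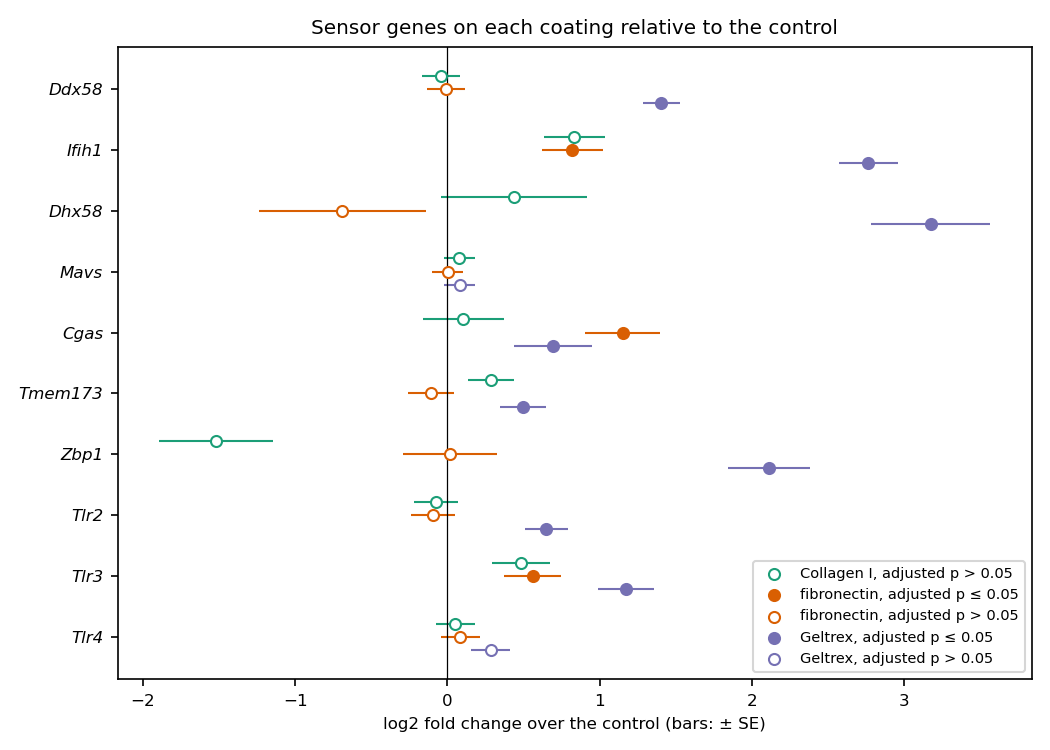
Log2 fold change of each sensor gene on each coating over the control, with bars for the standard error. Filled points have an adjusted p of at most 0.05: 8 on Geltrex™ (purple), 3 on fibronectin (orange), and 0 on Collagen I (green).

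All 3 RIG-I-like receptor genes rose on Geltrex™. *Ddx58* (ENSMUSG00000040296, chr4:40203773-40239828) measured 17.6, 19.3, and 20.9 CPM in the control samples, 18.5, 20.9, and 16.7 on Collagen I, 19.3, 20.9, and 17.3 on fibronectin, and 45.6, 46.7, and 60.8 on Geltrex™. The 9 samples without Geltrex™ overlapped completely, and the lowest Geltrex™ sample lay far above the highest of them. Relative to the control, the log2 fold change was 1.40 ± 0.12 (SE, edgeR's quasi-likelihood test, adjusted p = 4.04e-07) on Geltrex™. It was -0.04 on Collagen I (95% interval -0.31 to 0.23) and -0.01 on fibronectin (-0.27 to 0.26).

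*Ifih1* (ENSMUSG00000026896, chr2:62595798-62646255) was at 2.43, 3.82, and 4.25 CPM in the control, 6.46, 7.51, and 4.66 on Collagen I, 6.54, 6.70, and 5.28 on fibronectin, and 22.1, 23.2, and 26.0 on Geltrex™. Its control samples were the 3 lowest of the 12, the Collagen I and fibronectin samples overlapped each other above them, and the Geltrex™ samples stood apart. On the log2 scale the change over the control was 2.76 ± 0.19 on Geltrex™ (adjusted p = 3.41e-08) and 0.82 ± 0.20 on fibronectin (adjusted p = 0.00577). On Collagen I a change of nearly the same size, 0.83 ± 0.20, missed the threshold with an adjusted p of 0.0578. That value passed in edgeR without Collagen I replicate 3 (adjusted p = 0.0217), without fibronectin replicate 3 (0.0468), with no filter on low counts (6.87e-05), and in DESeq2 (0.00466).

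*Dhx58* (ENSMUSG00000017830, chr11:100694884-100704271) was measured at 0.597, 0.293, and 0.127 CPM in the control, 0.260, 0.483, and 0.647 on Collagen I, 0.149, 0.335, and 0.155 on fibronectin, and 3.12, 3.01, and 3.25 on Geltrex™. The 9 samples without Geltrex™ had only 3 to 15 counts each and overlapped, while the Geltrex™ samples had 72 or 73. The log2 fold change on Geltrex™ was 3.17 ± 0.39 (edgeR, adjusted p = 1.3e-05). Of the 9 samples without Geltrex™, 3 reached the level of 0.411 CPM that the filter asks of at least 3 samples. Of its exon length, 4.31% also lies under *Dhx58os* on the opposite strand, a gene with 194 counts over all samples, and the rule for strand in the counting was not given in the sources used here.

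*Mavs* (ENSMUSG00000037523, chr2:131234063-131248025), the adaptor on which RIG-I and MDA5 act, was not called on any coating. Its levels were 25.3, 22.05, and 23.9 CPM in the control, 26.4, 23.9, and 24.9 on Collagen I, 27.1, 20.5, and 23.6 on fibronectin, and 26.0, 24.2, and 25.2 on Geltrex™. All 4 groups overlapped. The log2 fold change on Geltrex™ was 0.08, with a 95% interval of -0.13 to 0.30 and an edgeR adjusted p of 0.577. This interval lies below the lower limits for *Ddx58* (1.14) and *Ifih1* (2.36) in the same comparison.

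**Figure D3:**
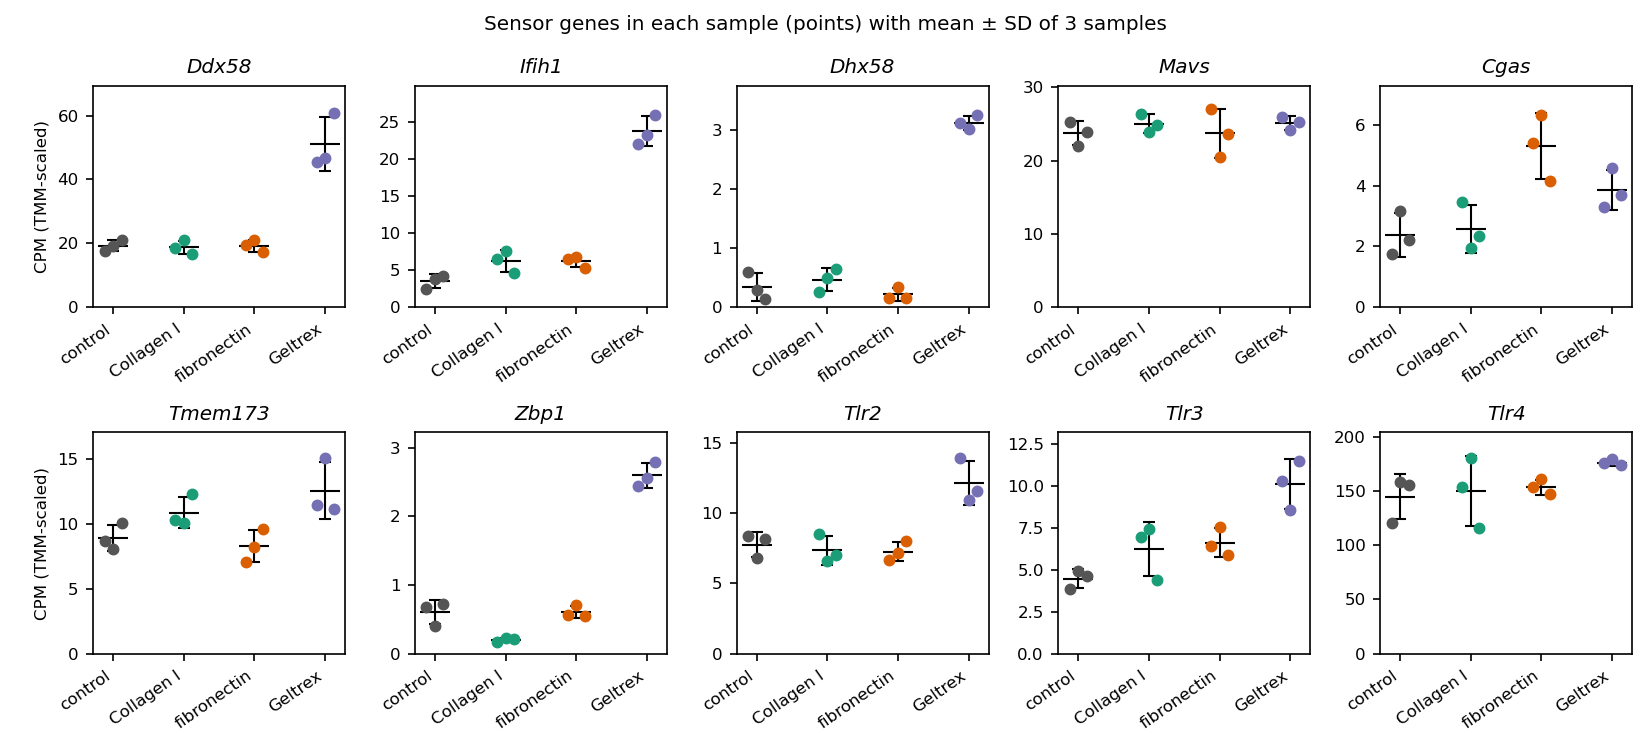
CPM of each sensor gene in every sample (points) by coating, with the mean and SD of 3 samples, each panel from 0 on its own scale. The Geltrex™ samples stand above all others for *Ddx58*, *Ifih1*, *Dhx58*, *Zbp1*, *Tlr2*, and *Tlr3*, the fibronectin samples lie highest on average for *Cgas*, and all groups overlap for *Mavs*.

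Among the sensors of DNA and Z-form nucleic acids, *Cgas* (ENSMUSG00000032344, chr9:78430526-78443237) had its highest mean on fibronectin. It was at 1.75, 3.15, and 2.21 CPM in the control, 3.47, 1.93, and 2.33 on Collagen I, 5.42, 6.32, and 4.16 on fibronectin, and 3.29, 4.57, and 3.70 on Geltrex™. The fibronectin samples lay above all control and Collagen I samples but overlapped those on Geltrex™, which in turn overlapped Collagen I. Over the control, the log2 fold change was 1.15 ± 0.25 on fibronectin (edgeR, adjusted p = 0.00239) and 0.69 ± 0.25 on Geltrex™ (adjusted p = 0.0471). Fibronectin and Geltrex™ differed by 0.46 (95% interval -0.05 to 0.96, adjusted p = 0.194), so the order of these coatings was not resolved.

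The *Cgas* call on Geltrex™ was close to the threshold. Its edgeR adjusted p was above 0.05 without control replicate 1 (0.172), control replicate 3 (0.118), or fibronectin replicate 1 (0.0584), and without Geltrex™ replicate 1 (0.0513), replicate 2 (0.180), or replicate 3 (0.0856). It was 0.197 when the Geltrex™ samples were summed into 1.

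*Tmem173* (ENSMUSG00000024349, on chromosome 18) was measured at 8.71, 8.07, and 10.1 CPM in the control, 10.3, 10.1, and 12.3 on Collagen I, 7.09, 8.21, and 9.59 on fibronectin, and 11.5, 15.1, and 11.1 on Geltrex™. The Geltrex™ samples lay above all control and fibronectin samples and overlapped Collagen I. Its log2 fold change over the control was 0.49 ± 0.15 on Geltrex™ (edgeR, adjusted p = 0.0186) and 0.28 on Collagen I (95% interval -0.04 to 0.60, adjusted p = 0.395). The Geltrex™ call was lost without control replicate 1 (adjusted p = 0.0523), control replicate 2 (0.0655), or Geltrex™ replicate 2 (0.116), and with the Geltrex™ samples summed (0.0970).

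*Zbp1* (ENSMUSG00000027514, chr2:173206612-173218923) had its lowest values on Collagen I. It was at 0.676, 0.404, and 0.722 CPM in the control, 0.173, 0.223, and 0.216 on Collagen I, 0.557, 0.712, and 0.544 on fibronectin, and 2.43, 2.55, and 2.80 on Geltrex™. The Collagen I samples, with 4 to 6 counts each, were the 3 lowest of the 12, the control and fibronectin samples overlapped, and the Geltrex™ samples were the 3 highest. The log2 fold change over the control was 2.11 ± 0.27 on Geltrex™ (edgeR, adjusted p = 1.8e-05) and 0.02 on fibronectin (95% interval -0.64 to 0.67). On Collagen I it was -1.52 ± 0.37, which was not called (adjusted p = 0.0606). Of the 9 samples without Geltrex™, 5 reached the level that the filter asks for.

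Of the Toll-like receptor genes, *Tlr3* and *Tlr2* rose on Geltrex™ and *Tlr4* was not called. *Tlr3* (ENSMUSG00000031639, chr8:45395665-45411080) was at 3.86, 4.92, and 4.63 CPM in the control, 6.93, 7.39, and 4.40 on Collagen I, 6.39, 7.54, and 5.86 on fibronectin, and 10.3, 8.53, and 11.5 on Geltrex™. The Geltrex™ samples were the 3 highest, the fibronectin samples lay above the control without overlap, and Collagen I spanned both. The log2 fold change over the control was 1.17 ± 0.19 on Geltrex™ (edgeR, adjusted p = 0.000156), 0.56 ± 0.19 on fibronectin (adjusted p = 0.0344), and 0.49 ± 0.19 on Collagen I (adjusted p = 0.249). The fibronectin call was lost without control replicate 1 (adjusted p = 0.133), control replicate 3 (0.0599), fibronectin replicate 1 (0.0655), or fibronectin replicate 2 (0.129).

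*Tlr2* (ENSMUSG00000027995, chr3:83836272-83841767) measured 8.39, 6.79, and 8.15 CPM in the control, 8.54, 6.58, and 7.03 on Collagen I, 6.69, 7.16, and 8.0 on fibronectin, and 13.97, 10.96, and 11.6 on Geltrex™. The Geltrex™ samples were the 3 highest, and the other 9 overlapped. The log2 fold change on Geltrex™ was 0.65 ± 0.14 (edgeR, adjusted p = 0.00195), against -0.08 on Collagen I (95% interval -0.38 to 0.23) and -0.09 on fibronectin (-0.40 to 0.21).

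*Tlr4* (ENSMUSG00000039005, chr4:66827584-66930284) was at 121, 158, and 155 CPM in the control, 153, 180, and 116 on Collagen I, 153, 161, and 147 on fibronectin, and 176, 179, and 174 on Geltrex™. The Geltrex™ samples lay above all control and fibronectin samples, and the Collagen I samples spanned the whole range. The log2 fold change on Geltrex™ was 0.28 (95% interval 0.01 to 0.56, edgeR, adjusted p = 0.107) and was not called. It passed without Collagen I replicate 3 (adjusted p = 0.0346), with no filter on low counts (0.0187), and with only the 2 groups compared in the fit (0.0285).

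Comparing the coatings with one another, Geltrex™ differed from Collagen I in 6 sensor genes, *Ddx58*, *Ifih1*, *Dhx58*, *Zbp1*, *Tlr2*, and *Tlr3*, all lower on Collagen I, beside 37.1% of all genes called and 19% called lower. *Zbp1* was 12.4-fold lower on Collagen I (log2 fold change -3.63 ± 0.32, edgeR, adjusted p = 3.74e-07), *Dhx58* 6.67-fold, and *Ifih1* 3.81-fold. The folds of *Zbp1* and *Dhx58* rest on few counts on Collagen I, 4 to 6 and 6 to 15 a sample. *Tlr3* had a log2 fold change of -0.69 ± 0.18 (adjusted p = 0.00768), and its call was lost with the Geltrex™ samples summed (0.0754). *Cgas* (-0.59, 95% interval -1.13 to -0.05) was not called unless Collagen I replicate 1 was left out (0.0256) or no filter was used (0.0204), and *Tlr4* (-0.23, -0.51 to 0.04) not unless Collagen I replicate 2 was left out (0.0268).

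Fibronectin differed from Geltrex™ in 7 genes, the 6 just named and *Tmem173*, all lower on fibronectin, beside 19.3% of all genes called and 9.06% called lower. With a fold of at least 2, a call made lower for 2.26% of all genes, there were 4, *Dhx58* (14.6-fold), *Zbp1* (4.28-fold), *Ifih1* (3.85-fold), and *Ddx58* (2.66-fold). The folds of *Dhx58* and *Zbp1* rest on few counts on fibronectin, 4 to 8 and 14 to 17 a sample. *Tmem173* had a log2 fold change of -0.60 ± 0.15 (edgeR, adjusted p = 0.0103), which lost its call without fibronectin replicate 1 (0.0575) or Geltrex™ replicate 2 (0.0730) and with the Geltrex™ samples summed (0.0927). *Tlr3*, at -0.61 ± 0.18 (adjusted p = 0.0254), lost its call without fibronectin replicate 1 (0.0827), fibronectin replicate 3 (0.0682), Geltrex™ replicate 1 (0.0787), or Geltrex™ replicate 3 (0.116), and with the samples summed (0.219). In the same comparison all 8 myotube markers had negative log2 fold changes, from -0.68 to -0.33, and 4 of them were called lower on fibronectin. Their sums, 2166–2548 CPM on fibronectin and 3020–3287 on Geltrex™, did not overlap. The sums of the cycling or undifferentiated markers, 505–652 and 524–581 CPM, overlapped.

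Collagen I differed from fibronectin in 3 sensor genes, beside 45% of all genes called (22.1% higher and 22.9% lower on Collagen I). *Cgas* (log2 fold change -1.05 ± 0.25, edgeR, adjusted p = 0.00309) and *Zbp1* (-1.53 ± 0.37, adjusted p = 0.00383) were lower on Collagen I, and *Tmem173* was higher (0.39 ± 0.15, adjusted p = 0.0453). The *Tmem173* call did not hold in 6 of the fits that left out 1 sample, without Collagen I replicate 1 (0.0615) or 3 (0.159), fibronectin replicate 1 (0.187) or 2 (0.0989), or Geltrex™ replicate 1 (0.0557) or 3 (0.0513). That call was also lost with only the 2 groups compared in the fit (0.0588). With the Geltrex™ samples summed, the log2 fold change of *Tmem173* was 0.38. *Dhx58* had a log2 fold change of 1.13 (95% interval 0.01 to 2.24, adjusted p = 0.0919) and was called only without Collagen I replicate 1 (0.0496). *Ifih1*, *Ddx58*, *Tlr2*, *Tlr3*, *Tlr4*, and *Mavs* had log2 differences between -0.07 and 0.08.

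The genes that act around these sensors were examined in 5 lists of 76 genes, of which 55 were tested. On Geltrex™ 18 of the 55 were higher than in the control and 8 were lower, beside 16.4% and 16.6% of all genes. On fibronectin 11 were higher and 6 lower, beside 17.1% and 14.7% of all genes. On Collagen I edgeR called 0, with 8 at an unadjusted p under 0.05, beside 14.8% of all genes. DESeq2 called 1, *Ifi204*, beside 485 of the 14499 genes tested. These counts are near the background, apart from the genes called higher on Geltrex™, of which 16 of 53 remained without *Cxcl10* and *Ccl5*, the 2 genes that passed the filter only through the Geltrex™ samples. Because the lists were chosen with earlier results of these data known, that count is a description and no independent support. The median log2 fold change of the 55 genes on Geltrex™ was 0.10.

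Of 15 genes that act in RNA sensing or its signaling, 6 rose and 1 fell on Geltrex™, beside 16.4% and 16.6% of all genes, with a list median of 0.17 on the log2 scale. *Irf7*, a transcription factor that drives interferon genes, was at 1.39, 0.880, and 0.764 CPM in the control and 6.83, 6.71, and 11.1 on Geltrex™. Its log2 fold change was 3.01 ± 0.28 (edgeR, adjusted p = 6.84e-07). *Ifit1*, which encodes a protein that binds foreign RNA, went from 0.358, 0.183, and 0.849 CPM to 19.7, 22.3, and 37.2, a log2 fold change of 5.86 ± 0.39 (adjusted p = 2.28e-08). For both genes the Geltrex™ samples lay far above the control. Neither was called on Collagen I (*Irf7* 0.21, *Ifit1* -0.05) or fibronectin (-0.32 and 0.75). The other genes that passed were named after their values were seen: *Trim25* (0.83), *Eif2ak2* (0.73), *Zc3hav1* (0.59), and *Adar* (0.52) rose, and *Rnf135* fell by 0.62. *Trim25* and *Rnf135* both encode ubiquitin ligases that act on RIG-I. On fibronectin 4 of the 15 rose and 1 fell, beside 17.1% and 14.7% of all genes, with a median of 0.12.

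In the list of DNA sensing and necroptosis genes, 14 of 18 were tested, and on Geltrex™ 5 rose and 1 fell, beside 16.4% and 16.6% of all genes, with a median of 0.18. *Ifi203* and *Ifi204*, members of a family of interferon-inducible proteins, rose by 1.58 ± 0.12 and 1.15 ± 0.09 on the log2 scale (edgeR, adjusted p = 1.25e-07 and 7.8e-08). *Ifi204* was at 26.1, 26.1, and 28.4 CPM in the control and 60.4, 57.2, and 61.6 on Geltrex™. *Nlrc3*, described as a brake on STING signaling, was at 12.4, 12.03, and 11.2 CPM in the control, 6.28, 6.24, and 5.63 on fibronectin, and 5.72, 4.70, and 5.59 on Geltrex™. It fell by 1.16 on the log2 scale on Geltrex™ (adjusted p = 1.72e-05) and by 0.98 on fibronectin (adjusted p = 0.000101), with no overlap with the control on either coating. *Mlkl*, the executioner of necroptosis that acts downstream of ZBP1, was named after its values were seen and rose by 0.83 on Geltrex™ and 0.73 on fibronectin. *Ripk3*, another necroptosis gene of the list and also named after its values were seen, had few counts. It had 28 in the control, 23 on Collagen I, 32 on fibronectin, and 19 on Geltrex™. *Ifi205*, *Trex1*, *Nlrp3*, and *Pycard* were not tested. *Trex1* had 0 counts, but all of its exon sequence is shared with *Atrip* on the same strand, so its level could not be read from these counts. *Pycard* had 30 counts on Geltrex™ against 10 in the control, 2 on Collagen I, and 2 on fibronectin.

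Few of the other Toll-like receptors were measurable. Of 9, only *Tlr6*, which pairs with TLR2, was tested, and on Geltrex™ its log2 fold change was -0.55 ± 0.12 (edgeR, adjusted p = 0.00313). *Tlr6* thus fell on the coating on which *Tlr2* rose. *Tlr11* and *Tlr12* had 0 counts, which allows up to 0.0101 CPM over all libraries, and *Tlr1*, *Tlr5*, *Tlr7*, *Tlr8*, *Tlr9*, and *Tlr13* were below the filter. Of 20 tested co-receptors and adaptors of the family, 4 rose and 5 fell on Geltrex™, 3 rose and 3 fell on fibronectin, and the medians were 0.01 and 0.03. These counts are near the shares of all genes, 16.4% higher and 16.6% lower on Geltrex™ and 17.1% and 14.7% on fibronectin. The named genes below were chosen after their values were seen. *Cd14*, the co-receptor that hands lipopolysaccharide to TLR4, fell by 0.45 on Geltrex™ and 0.49 on fibronectin, and *Unc93b1*, which carries TLR3 to endosomes, fell by 0.46 and 0.63. *Traf6*, a ubiquitin ligase downstream of these receptors, rose by 0.58 and 0.25. *Ticam2*, with 1 count, was not tested, and 14.5% of its exon sequence is shared with *Tmed7*.

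Of 13 cytokine genes that these sensors can induce, 5 were tested. On Geltrex™ *Ccl2*, *Cxcl10*, and *Ccl5* rose, but *Cxcl10* and *Ccl5* passed the filter only through the Geltrex™ samples, where they were high, so the count is no support for the list. *Ccl2*, which encodes a monocyte chemoattractant, was at 13.6, 12.7, and 15.6 CPM in the control, 6.05, 5.78, and 7.61 on fibronectin, and 117, 96.8, and 98.2 on Geltrex™. These 3 groups did not overlap, Collagen I (11.5, 13.8, and 11.1 CPM) overlapped the control, and the log2 fold change was 2.90 ± 0.12 on Geltrex™ (edgeR, adjusted p = 4.22e-10) and -1.11 ± 0.13 on fibronectin (adjusted p = 1.41e-05). *Cxcl10*, an interferon-inducible chemokine, had 0 counts in the control and 49 on Geltrex™, at least 5.54-fold higher against 3 counts per library. *Ccl5* had 90 counts on Geltrex™ against 1 in the control, a ratio of 97.8 with a 95% counting interval of 17.1 to 3907, and 0 on Collagen I and fibronectin, at least 9.92-fold and 10.3-fold higher. Such intervals and floors cover counting error only, since no molecular identifiers tell copies of one molecule apart. The list median on Geltrex™ was 2.90, or 2.47 with these bounds in place of fitted values, and 0.07 over the 3 genes left without *Cxcl10* and *Ccl5*. *Il6* and *Il1b* had log2 fold changes of 0.07 (95% interval -0.70 to 0.84) and -1.23 (-2.56 to 0.10) on Geltrex™ and were not called. The interferon genes *Ifnb1*, *Ifna2*, *Ifna4*, *Ifnl2*, *Ifnl3*, and *Ifng*, with *Tnf* and *Il12b*, were below the filter, and *Ifnb1* had 1 count in all 12 samples. *Ifng* had 4 counts in the control, 18 on Collagen I, 7 on fibronectin, and 24 on Geltrex™.

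**Figure D4:**
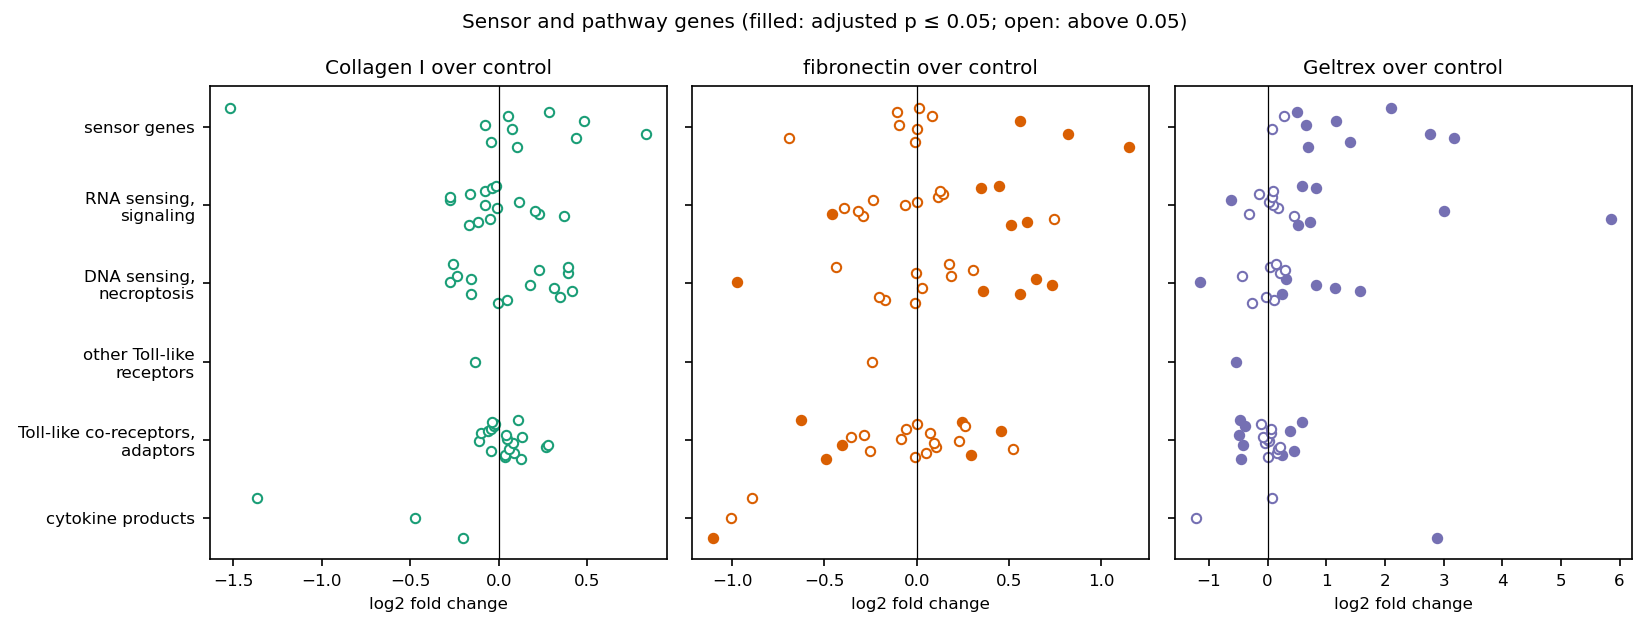
Log2 fold change over the control of the 10 sensor genes and of the tested genes of the 5 lists (1 point a gene, filled at an adjusted p of at most 0.05), with a panel and an x axis of its own for each coating. *Cxcl10* and *Ccl5* are left out because a group was at or near 0 counts. On Geltrex™ 8 sensor genes are filled and lie to the right of 0, and in the list of co-receptors and adaptors 4 filled points lie to the right and 5 to the left.

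The genes whose log2 CPM followed each sensor most closely over the 12 samples were listed by Pearson's r, as a description, because the 12 points share 4 groups and the same libraries. *Ddx58* was closest to *Oas2* and *Oas1a* (r = 0.99 and 0.98), which encode enzymes activated by viral-type RNA, and to *Gbp3* (0.98). Counts per sample ran from 0 to 167 for *Oas2* and from 0 to 66 for *Oas1a*, so both genes reached the floor. *Ifih1* was closest to *Etv1*, *Mndal*, and *Ifi203* (0.98, 0.98, and 0.97), and *Dhx58* to *Irf7*, *Trim12c*, and *Bcar1* (0.97, 0.95, and 0.95). *Tlr2* was closest to *Myc*, *Osr1*, and *Errfi1* (0.95, 0.94, and 0.94), and *Zbp1* to *Fgf7*, *Brd2*, and *Iqsec1* (0.98, 0.97, and 0.97). *Cgas* was closest to *Phlpp2* (0.95), *Tlr3* to *AW554918* (0.97), *Tlr4* to *Lrrk2* (0.95), and *Tmem173* to *Pla2g2e* (0.93). No gene followed *Mavs* as closely, its highest r being 0.84. None of the genes closest to a sensor was itself a sensor of the 10.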

How the data were processed

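RNA-seq of 12 samples (4 groups of 3) was analyzed from the deposited raw read counts per gene. Trimmomatic for trimming, HISAT2 for alignment, and featureCounts for counting were used by the authors, per the paper and the submitters' processing notes. Versions, genome build, and the rules for strand and multiply mapped reads were not given in the sources used here. All 55536 gene identifiers matched GENCODE M21 (GRCm38), which gave names, positions, and exon lengths.

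Groups followed the labels. Genes were kept by filterByExpr (minimum count 10, minimum total 15) and libraries were scaled by TMM. A quasi-likelihood model in edgeR 4.0.16 (R 4.3.3), with group as the only term, covered all 12 samples and 6 comparisons. Benjamini-Hochberg adjustment ran over the 14499 genes tested, and genes were called at an adjusted p of at most 0.05. DESeq2, used by the authors with the samples per fit not stated, was run as version 1.42.0 as an alternative. SE was the log2 fold change divided by the root of the F statistic. The model was also run on simulated counts of independent samples, drawn with the spread estimated here. Such a run cannot show whether the real samples are technical replicates.

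Named genes were the 10 sensor genes, list genes called with a fold of at least 2 over the control, list genes not tested, and for each sensor the 3 genes of highest r (log2 CPM, prior count 2). Genes outside this rule are said to be so. The members and lists were chosen with earlier results of these data known. Alternatives were RLE scaling, no filter, at least 10 counts in every sample, only the groups compared, a replicate block, each sample left out, the Geltrex™ samples summed, a minimum fold of 2, and a prior count of 0.5. Protein sequences were not analyzed here.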

Additional observations from a re-analysis of the deposited data

How the results depend on the processing

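Over 1125 alternative values of the log2 fold changes of the sensor genes, 1080 kept their direction and their side of the threshold, 12 passed it newly, 33 no longer passed it, and 0 called values reversed. Of the 10 genes, the number called for Collagen I against the control (0) was 1 in DESeq2, 1 with no filter on low counts, and 0 to 1 with 1 sample left out. For Geltrex™ against the control (8) it was 5 with at least 10 counts in every sample, where *Dhx58* and *Zbp1* were not tested and *Cgas* was not called, and 6 to 9 with 1 sample left out. It was 2 to 3 for fibronectin against the control (3) and for Collagen I against fibronectin (3), 6 to 7 for Collagen I against Geltrex™ (6), and 5 to 7 for fibronectin against Geltrex™ (7). A required fold of 2 left 1 for fibronectin and 5 for Geltrex™ against the control, and 4 for fibronectin against Geltrex™. Of the list genes, of which 55 were tested, Collagen I against the control (0) gave 1 in DESeq2 and 4 with no filter, *Ifi203*, *Il6*, and *Dnase2a* of the 55 and *Ifi205*, which is tested only without the filter. Fibronectin against the control (17) gave 11 to 20 with 1 sample left out, the lowest without fibronectin replicate 2, and 1 with the fold. With the Geltrex™ samples summed, list calls were 14 for Geltrex™ against the control (26), 16 for Collagen I against Geltrex™ (28), and 9 for fibronectin against Geltrex™ (15), and with the fold 8, 7, and 7. Leaving out 1 sample, these ranged over 19 to 28, 23 to 30, and 10 to 17. Collagen I against fibronectin (27) gave 20 to 28, and 0 with the fold. The cause of these moves was not tested, apart from what the settings themselves remove. Over all genes, Collagen I against the control (162) gave 485 in DESeq2, 581 with no filter, 39 with only the 2 groups, 45 with the Geltrex™ samples summed, and 44 to 233 with 1 sample left out, lowest without Collagen I replicate 2. Summing the Geltrex™ samples gave 2079 for Geltrex™ against the control (4786), 2130 for Collagen I against Geltrex™ (5384), and 703 for fibronectin against Geltrex™ (2805), which gave 1717 to 3436 with 1 sample left out, lowest without Geltrex™ replicate 1. The mean log2 CPM of *Zbp1* on Collagen I was -1.81, and -2.16 with a prior count of 0.5.

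Replicate numbers gave no clear sign of pairing, though 3 samples a group cannot exclude it. The correlations of deviations of same-numbered samples lay between -0.15 and 0.23, and in no comparison were all 3 above 0.1. For Collagen I against fibronectin all 3 were positive (0.05, 0.17, and 0.23). In the fit with a replicate block, the counts of sensor genes called stayed at 0, 3, 8, 3, 6, and 7 for Collagen I, fibronectin, and Geltrex™ against the control, Collagen I against fibronectin and against Geltrex™, and fibronectin against Geltrex™. Those of list genes were 0, 18, 26, 26, 29, and 15, and over all genes Geltrex™ against the control gave 4763 in place of 4786. Depth limited *Dhx58* and *Zbp1* outside Geltrex™, with 3 to 17 counts a sample.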
